A study of Mus musculus with 6 samples.

Results

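Rab GTPases are the largest branch of the Ras superfamily, and their genes were taken here as every gene whose symbol is Rab followed by a number and at most 1 letter. The rule found 59 genes among the 56923 listed, all of them protein coding in the annotation used for symbols. It does not use expression. RNA was measured in prefrontal cortex of 3 mice lacking Pla2g4e (KO) and 3 wild-type mice (WT), 1 library each, from polyadenylated RNA. Pla2g4e encodes a calcium-dependent enzyme that moves a fatty acyl chain onto phosphatidylethanolamine. The KO mice, on C57BL/6N-A tm1Brd, carried Pla2g4e tm2a, a constitutive allele with a LacZ gene trap. The labels give no age, sex or litter and no treatment, and nothing in them says more about where the 3 samples of a genotype came from, so the p-values measure only the spread between these samples.

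A Rab protein switches between a GTP-bound form on a membrane and a GDP-bound form that can be taken off it. Guanine nucleotide exchange factors (GEFs) load GTP, GTPase-activating proteins (GAPs) speed its hydrolysis, and effectors read the active one to move, tether or fuse vesicles. Each Rab marks its own membranes, and in neurons the Rab3 proteins are known for the release of synaptic vesicles, Rab5 and Rab11 for receptor traffic through endosomes, and Rab7 for the path to the lysosome. Rab proteins attach to membranes through geranylgeranyl groups on cysteines at or near their carboxyl end.

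These cysteines can be read in the transcripts. In the longest complete coding transcript of each gene in GENCODE M21 (GRCm38), the last codons of 59 of the 59 genes included a prenylation motif. In 20 genes the sequence ended in cysteine, any residue, cysteine (CXC), in 15 genes in 2 cysteines (CC), and in 9 genes in a cysteine and 3 other residues (CXXX). The other 15 carried a cysteine pair followed by 1 residue in 3 genes, by 2 residues in 6 genes and by 3 residues in 6 genes. The last 15 coding bases before the stop codon are shown for genes on which the results turn and for 1 example of the CXXX form, 5′ to 3′, with the cysteine codons of the motif in capitals.
Rab3a: caggatTGTgccTGC
Rab6a: ggcggcTGTtccTGC
Rab6b: ggcggcTGCtccTGT
Rab7: gaaagcTGCagtTGT
Rab2a: gggggaggcTGCTGT
Rab35: aagaaacgcTGCTGC
Rab5c: cagTGCTGCagcaac
Rab11a: TGCTGTcagaacatc
Rab30: TGTTGTaatttcaac
Rab37: TGCTGCtcctttgtg
Rab34: gccacaTGTTGTccc
Rab8a: cggTGCagtctcctg
Rab6a and Rab6b encode the same glycine, glycine, cysteine, serine, cysteine end with the codons for the cysteines exchanged, which shows how paralogs of the family differ in sequence while keeping the motif. Coding lengths ran from 194 to 973 codons with a median of 215, and 52 of the 59 genes lay between 190 and 240 codons. Rab44, with 973 codons, was the longest, and the next had 295.

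The libraries held 11792463 to 14594230 fragments assigned to genes, with mitochondrial genes at 6.13% to 7.41% of them. Levels are given as CPM (the share of the fragments assigned in a library, scaled to a common total), or as RPKM (CPM per kilobase of exon) wherever genes are compared with each other. Pla2g4e itself had 88, 97 and 102 fragments in the KO libraries and 100, 138 and 168 in the WT libraries. Scaled to library size, KO had 5.95, 8.12 and 7.97 CPM against 7.84, 11.3 and 13.2 CPM for WT, so the groups overlapped and the whole-gene count does not separate the genotypes (log2 fold change -0.55, unadjusted p 0.0205 in limma-voom). These counts are summed over all exons of the trapped gene. Xist, which is transcribed from the inactive X chromosome, reached 1387 CPM in the first KO library and 969 CPM in the first WT library but no more than 0.246 CPM elsewhere, so each genotype held 1 library (replicate 1) with it and 2 without. Neuron markers were abundant in every library, and 12 of the 12 on the list had fragments in all 6.

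All 59 Rab genes had at least 1 fragment somewhere, and 55 had fragments in every library. The levels covered a wide range. In mean RPKM over the 6 libraries, 4 genes were at 100 or more, 27 between 10 and 100, 16 between 1 and 10, and 12 under 1. The 5 highest genes together took between 47.9% and 51.5% of the summed Rab RPKM of a library, and the 10 highest between 64.9% and 67.8%.

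The top of the order was shared by a Golgi Rab and a synaptic vesicle Rab. Rab6b, a brain-enriched Rab of Golgi and retrograde transport, stood at 197 ± 13.2 RPKM (SD, n = 6), and Rab3a, the main Rab of synaptic vesicles, at 196 ± 16.7 RPKM. Rab6a, the widely expressed Rab6 of the Golgi, followed at 130 ± 14.6 RPKM, Rab2a of the path from the endoplasmic reticulum (ER) to the Golgi at 107 ± 8.23 RPKM, and the late endosomal Rab7 at 79.2 ± 4.84 RPKM. The ranges of Rab6b and Rab3a overlapped, as did those of Rab6a and Rab2a, whereas the lowest library of Rab3a lay above the highest of Rab6a, and the lowest of Rab2a above the highest of Rab7. Next came Rab15 of recycling endosomes at 56.6 RPKM, Rab5c of early endosomes at 51.2, and Rab1b and Rab1a of ER-to-Golgi transport at 49.8 and 44.4. Of the 58 pairs of neighbours in the whole order, 49 overlapped in their ranges over the 6 libraries and 9 did not. The order also rests on the lengths used. With the length of the longest transcript in place of all exons, the same 5 genes came first, but Rab3a stood at 281 RPKM and Rab6b at 198, and 5 of the 59 genes moved by 5 or more places, with Rab14 (from 15.7 to 42.7 RPKM) and Rab28 (from 11.2 to 17.5 RPKM) each moving by 8.

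The bottom of the order held Rabs known from other tissues. Rab38, a melanosome Rab, had 0.187 RPKM and at most 5 fragments in a library, Rab19 at most 4, and the epithelial Rabs Rab25 and Rab17 at most 2 and 1. Rab44, a long Rab of blood cells, had 2 fragments in KO replicate 3 and none in the other 5 libraries. Rab17 and Rab44 had no fragment in the 3 WT libraries, which allows a level of up to 0.0788 CPM in them (3 fragments over the 3 libraries, counting error only). These 5 genes did not reach the 6 fragments in at least 1 library that the comparison required, and the other 54 were tested. Rab20, an endosomal Rab with 0.269 RPKM, reached 6 fragments only in a KO library.

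**Figure D1:**
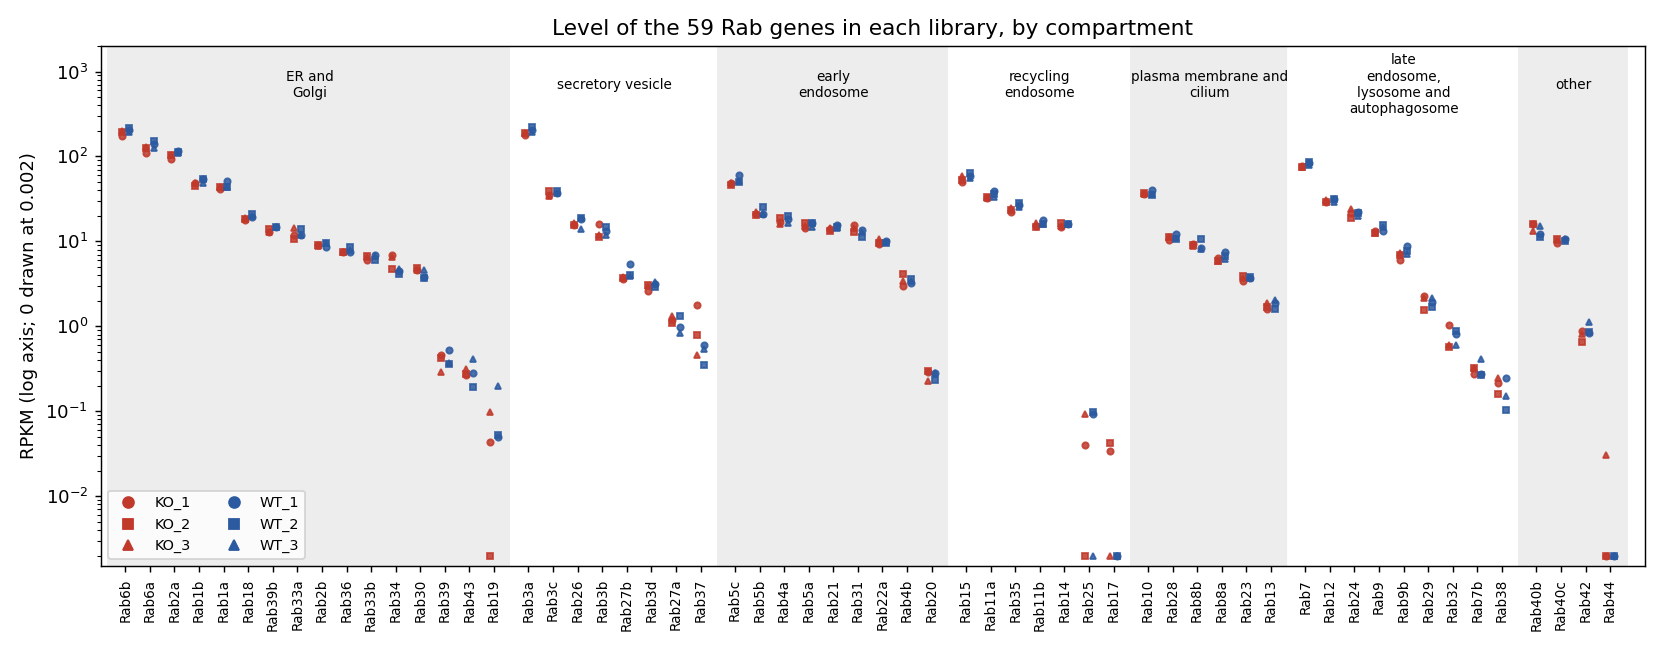
RPKM of each of the 59 Rab genes (log axis) in the 3 KO (red) and 3 WT (blue) libraries, with 1 symbol per replicate and genes grouped by the compartment they are best known for and ordered by level. Levels ran from 197 RPKM for Rab6b to under 0.1 RPKM for Rab19, Rab25, Rab17 and Rab44. In the order of all 59 genes by level, not within compartments, 49 of the 58 neighbouring pairs overlap in their ranges over the libraries.

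Grouped by the membrane that each protein is best known for, from general knowledge and with 1 compartment per gene, the 16 ER and Golgi Rabs summed to 608 ± 40.6 RPKM (SD, n = 6), which was 42.7% of all Rab RPKM. The 8 secretory vesicle Rabs summed to 272 ± 19.8 RPKM (19.1%). The 9 Rabs of late endosomes, lysosomes and autophagosomes (155 ± 7.94 RPKM), the 7 of recycling endosomes (148 ± 10.3 RPKM) and the 9 of early endosomes (148 ± 6.58 RPKM) came next, at 10.9%, 10.4% and 10.4%. The 6 Rabs of the plasma membrane and cilium summed to 68.8 ± 2.56 RPKM (4.84%), and 4 genes placed in no compartment to 25.1 ± 1.92 RPKM (1.77%).

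Within the compartments the levels were uneven. Rab6b, Rab6a and Rab2a led the ER and Golgi group, in which Rab39, Rab43 and Rab19 were under 1 RPKM. In the secretory group, Rab3a was far above Rab3c (37.0 RPKM), Rab26 (16.5 RPKM), a Rab linked to synaptic vesicle turnover, and Rab3b (13.1 RPKM), while Rab27a (1.13 RPKM) and Rab37 (0.751 RPKM), both known from secretory granules, were low. The early endosome group was led by Rab5c, with Rab5b (21.9 RPKM), Rab4a (17.7 RPKM) and Rab5a (15.6 RPKM) at neighbouring levels. Rab15, Rab11a (34.5 RPKM) and Rab35 (25.2 RPKM), a Rab of fast recycling, led the recycling group, with Rab14 above Rab35 when the longest transcript gave the length. Rab10, a Rab of exocytic carriers and a substrate of the kinase LRRK2, was the most abundant of the plasma membrane and ciliary group (36.7 RPKM), followed by the ciliary Rab28 (11.2 RPKM). Rab7 and Rab12 (30.0 RPKM) led the degradative group, in which Rab29, a Rab linked to LRRK2, was at 1.96 RPKM.

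In 14 families with more than 1 paralog, the same paralog led in 6 of 6 libraries with the exon lengths of the files, and in 13 of the 14 it also led with the length of the longest transcript. The exception was Rab1, in which Rab1b then held 49.8%. Rab3a held 78.7% of the Rab3 family's RPKM, with Rab3c at 14.9%, Rab3b at 5.28% and Rab3d at 1.20%. Rab2a held 92.1% of its family, Rab7 99.6% and Rab39b, an X-linked Rab in which loss is known to cause intellectual disability, 97.2%. The leading share was smaller for Rab11a (68.2%), Rab33a (65.4%), Rab9 (65.0%), Rab6b (60.2%), Rab8b (58.5%), Rab5c (57.6%), Rab40b (57.2%) and Rab1b (52.8%). Rab27b held 78.1% of the Rab27 pair and Rab4a 83.7% of the Rab4 pair.

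Rab6 was the 1 family of the 14 in which the leading share did not overlap between genotypes. Rab6b was 61.1 ± 0.23% of the Rab6 pair in KO (SD, n = 3) and 59.3 ± 1.05% in WT. No test was run on these shares. For scale, the levels of 2482 of the 19084 genes tested did not overlap between genotypes. A lack of overlap in 1 family of 14 therefore does not by itself set Rab6 apart. Both Rab6 genes had lower mean levels in KO, Rab6a by more, as the fold changes show.

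**Figure D2:**
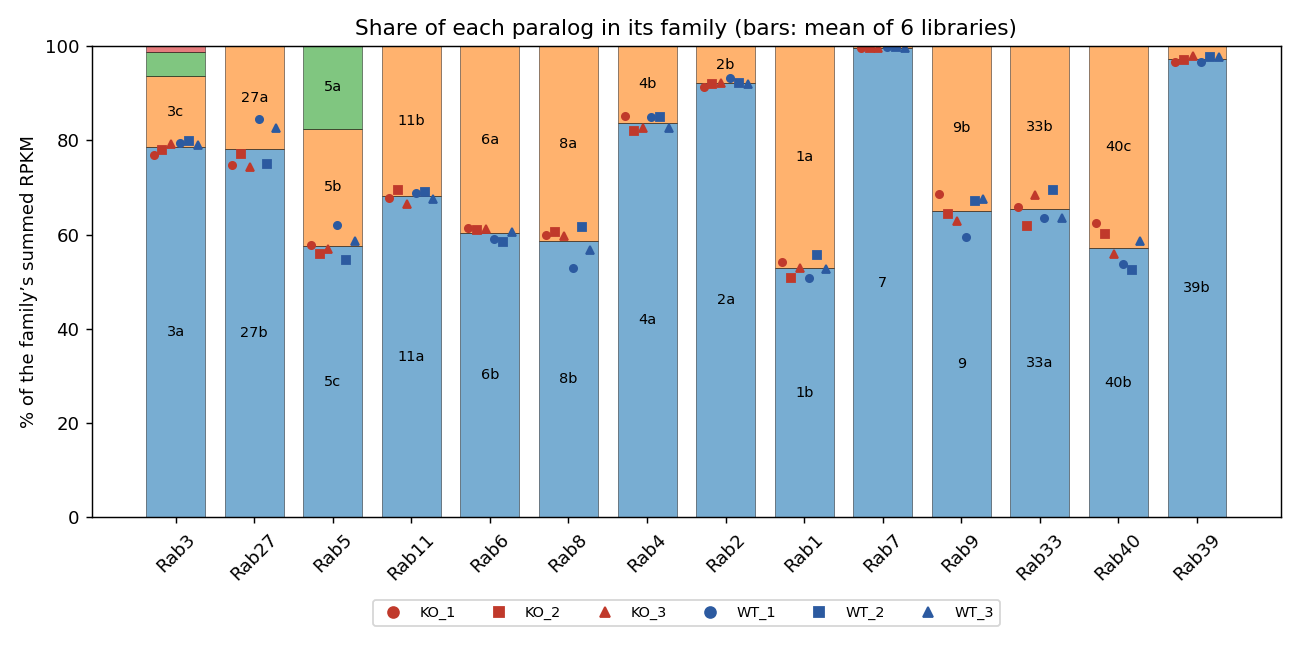
Share of each paralog in its family's summed RPKM, in percent; bars give the mean of 6 libraries, stacked from the leading paralog, and red (KO) and blue (WT) symbols give the leading paralog's share in each library. With these exon lengths the leading paralog is the same in every library, from 52.8% for Rab1b to 99.6% for Rab7.

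Paralogs are similar enough in sequence for their counts to need a check. Over 21 pairs, coding identity lay between 60.79% and 78.47%, and the longest run of identical coding bases was between 13 and 38. The longest was shared by Rab1a and Rab1b and is printed as the longest coding stretch that does not distinguish 2 paralogs.
Rab1a and Rab1b: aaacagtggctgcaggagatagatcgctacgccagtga
Rab6a and Rab6b, the pair with the highest identity, shared no run longer than 14 bases. Fragments that fitted 2 overlapping genes on the same strand were left uncounted. Exons of 6 Rab genes overlapped another gene on the same strand, by 64.97% of exon bases in Rab4b and 75.35% in Rab43 and by 9.36% or less in Rab26, Rab18, Rab27a and Rab11a. The levels of Rab4b (3.46 RPKM) and Rab43 (0.290 RPKM), and with them the share of Rab4a, therefore carry this limit.

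The comparison of KO with WT asked whether loss of Pla2g4e goes with altered expression in prefrontal cortex. No Rab gene passed the adjusted threshold. With limma-voom, 0 of 54 Rab genes had an adjusted p under 0.05, as had 0 of the 19084 genes tested (0%), and edgeR and DESeq2 also called no Rab gene. Over all genes, edgeR called 0 and DESeq2 1, with 1507 and 902 at an unadjusted p under 0.05. In limma-voom, at an unadjusted p under 0.05, 7 of the 54 Rab genes passed, against 1492 of all genes (7.82%). Of the 7, 5 were lower in KO, namely Rab2a, Rab35, Rab6a, Rab3a and Rab7, against 657 of all genes (3.44%), and 2 were higher, namely Rab34 and Rab30, against 835 of all genes (4.38%).

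The differences were small and mostly of 1 sign. In 43 of the 54 Rab genes the fold change was below 0, against 9185 of all genes tested (48.1%). The median log2 fold change was -0.07 over the Rab genes and 0.01 over all genes, and 52 of the 54 Rab genes lay within 0.25 on the log2 scale. The genotypes did not overlap in 11 Rab genes. KO was lower in 10 of these, against 1200 of all genes (6.29%), and higher in 1, against 1282 of all genes (6.72%).

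The level of a gene went with the sign of its fold change across the whole table, so the Rab genes were set beside genes of like level, in classes chosen after the data were seen. Of all genes with a mean log2 CPM under 5, 42.8% had a fold change below 0, of those from 5 to 7, 55.4%, and of those at 7 or more, 68.6%. The Rab genes numbered 15 of 22, 17 of 21 and 11 of 11 in these classes. An unadjusted p under 0.05 was reached by 1 of the 22 Rab genes in the lowest class, against 5.96% of all genes there, by 2 of the 21 in the middle class, against 10.1%, and by 4 of the 11 at 7 or more, against 15.6%. In the class at 7 or more the median log2 fold change was -0.13 for the Rab genes and -0.05 for all genes. In the class from 5 to 7 the medians were -0.08 and -0.02.

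**Figure D3:**
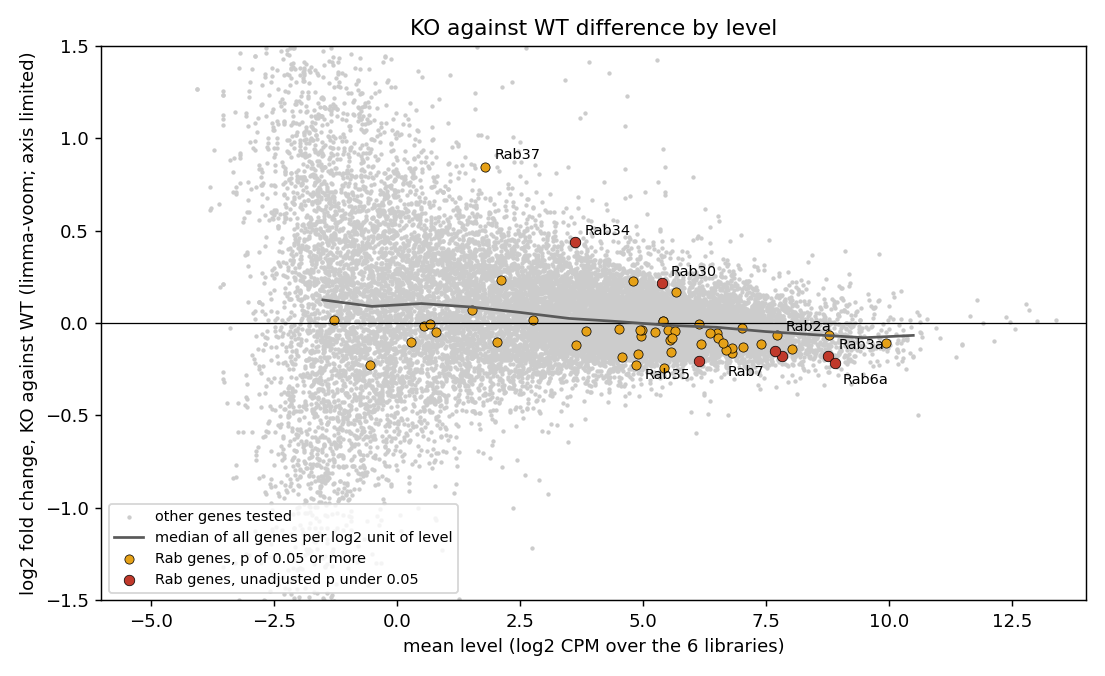
Log2 fold change of KO against WT plotted over mean log2 CPM for the genes tested (grey), on a limited axis that leaves out the largest fold changes. The line gives the median of all genes per log2 unit of level. The 54 Rab genes are orange, or red where the unadjusted limma-voom p was under 0.05. Most Rab genes lie below 0, and the 11 with a mean log2 CPM of 7 or more have values between -0.21 and -0.02, while the median of all genes also passes below 0 at high level.

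Rab2a (chr4:8535644-8607778 in GRCm39, plus strand), which acts between the ER and the Golgi, had 201, 222 and 220 CPM in the KO libraries and 250, 242 and 236 CPM in WT. Every KO library was below every WT library. The log2 fold change was -0.18 with a standard error (SE) of 0.06 and an unadjusted p of 0.0160 in limma-voom, and the adjusted p was 0.635, as it was for the other 6 genes at an unadjusted p under 0.05.

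Rab6a (chr7:100256617-100290475, plus strand), the Golgi Rab of retrograde transport, had 410, 464 and 476 CPM in KO against 524, 569 and 474 in WT. KO replicate 3 and WT replicate 3 were nearly level, so the groups overlapped (log2 fold change -0.21, SE 0.08, unadjusted p 0.0194). Its paralog Rab6b (chr9:102988986-103062475, plus strand) had 880, 975 and 1009 CPM in KO against 1023, 1079 and 979 in WT, with a log2 fold change of -0.11 and an unadjusted p of 0.137 (-0.05 without KO replicate 1).

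Rab3a (chr8:71207328-71211323, plus strand), whose protein sits on synaptic vesicles and acts in calcium-triggered release, had 396, 416 and 418 CPM in KO against 460, 499 and 433 in WT. The KO libraries lay close together and all below WT, with WT replicate 3 nearest to them. The log2 fold change was -0.18 (SE 0.07, unadjusted p 0.0199). The other Rab3 genes overlapped between genotypes, with log2 fold changes of -0.06 for Rab3c (-0.12 without KO replicate 2 and -0.03 without KO replicate 3), -0.04 for Rab3b and -0.12 for Rab3d. For Rab3b the sign turned without KO replicate 2 (0.05), KO replicate 3 (0.02) or WT replicate 2 (0.04). Rab3d was lowest in KO replicate 1 (10.9 CPM), with 12.7 and 12.6 CPM in the other KO libraries and 12.1 to 13.8 CPM in WT.

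Rab35 (chr5:115769967-115785795, plus strand), which returns cargo from endosomes to the plasma membrane, had 63.0, 65.7 and 69.8 CPM in KO against 75.7, 80.2 and 72.5 in WT. The groups did not overlap (log2 fold change -0.20, SE 0.07, unadjusted p 0.0163). Rab7 (chr6:87976088-88022252, minus strand), which drives late endosomes to fuse with lysosomes, had 199, 194 and 195 CPM in KO against 221, 222 and 209 in WT, again without overlap (log2 fold change -0.15, SE 0.06, unadjusted p 0.0284).

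The 2 genes on the other side were less abundant. Rab34 (chr11:78079256-78083019, plus strand), a Golgi and ciliary Rab, had 16.5, 11.3 and 15.7 CPM in KO against 10.7, 9.90 and 11.4 in WT. KO replicate 2 lay within the WT range and the other 2 KO libraries above it, with a log2 fold change of 0.44 (SE 0.16, unadjusted p 0.0150). Rab30 (chr7:92390811-92493743, plus strand), a Golgi Rab, had 44.7, 46.8 and 43.9 CPM in KO against 37.0, 35.8 and 43.9 in WT. The lowest KO and the highest WT library were the same to 3 digits, and the other WT libraries lay well below them (log2 fold change 0.22, SE 0.09, unadjusted p 0.0310).

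A further 6 genes were lower in every KO library than in any WT library with an unadjusted p of 0.05 or more. Rab39b on the X chromosome had 43.9, 48.2 and 44.0 CPM in KO against 50.2, 50.2 and 50.8 in WT (log2 fold change -0.16, unadjusted p 0.0563). Rab27b, known from secretory granules and exosomes, had 38.2, 39.8 and 41.1 CPM in KO against 58.0, 42.4 and 41.8 in WT, so that WT replicate 1 stood apart (-0.24, p 0.0578, and -0.09 without that library). Rab18, a Rab of the ER and lipid droplets, had 124, 126 and 129 CPM in KO against 134, 145 and 137 in WT (-0.13, p 0.0599).
Rab5c was at 108, 102 and 107 CPM in KO against 133, 110 and 113 in WT, again with WT replicate 1 above the rest (-0.16, p 0.0614, and -0.08 without it). For Rab27b the unadjusted p was 0.0232 with the Y-linked covariate, 0.0314 with the replicate block and 0.0490 with edgeR's quasi-likelihood test. For Rab5c these were 0.0291, 0.0444 and 0.0492. The lowest adjusted p of any alternative was 0.359 for Rab27b and 0.405 for Rab5c. For Rab9, which returns cargo from late endosomes to the Golgi, the log2 fold change was -0.18 (p 0.0845) and the lowest WT library, at 23.0 CPM, barely exceeded the highest KO library at 22.9 CPM. For Rab21, an endosomal Rab of integrin traffic, it was -0.11 (p 0.133), with 72.1 and 72.7 CPM as the nearest libraries.

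**Figure D4:**
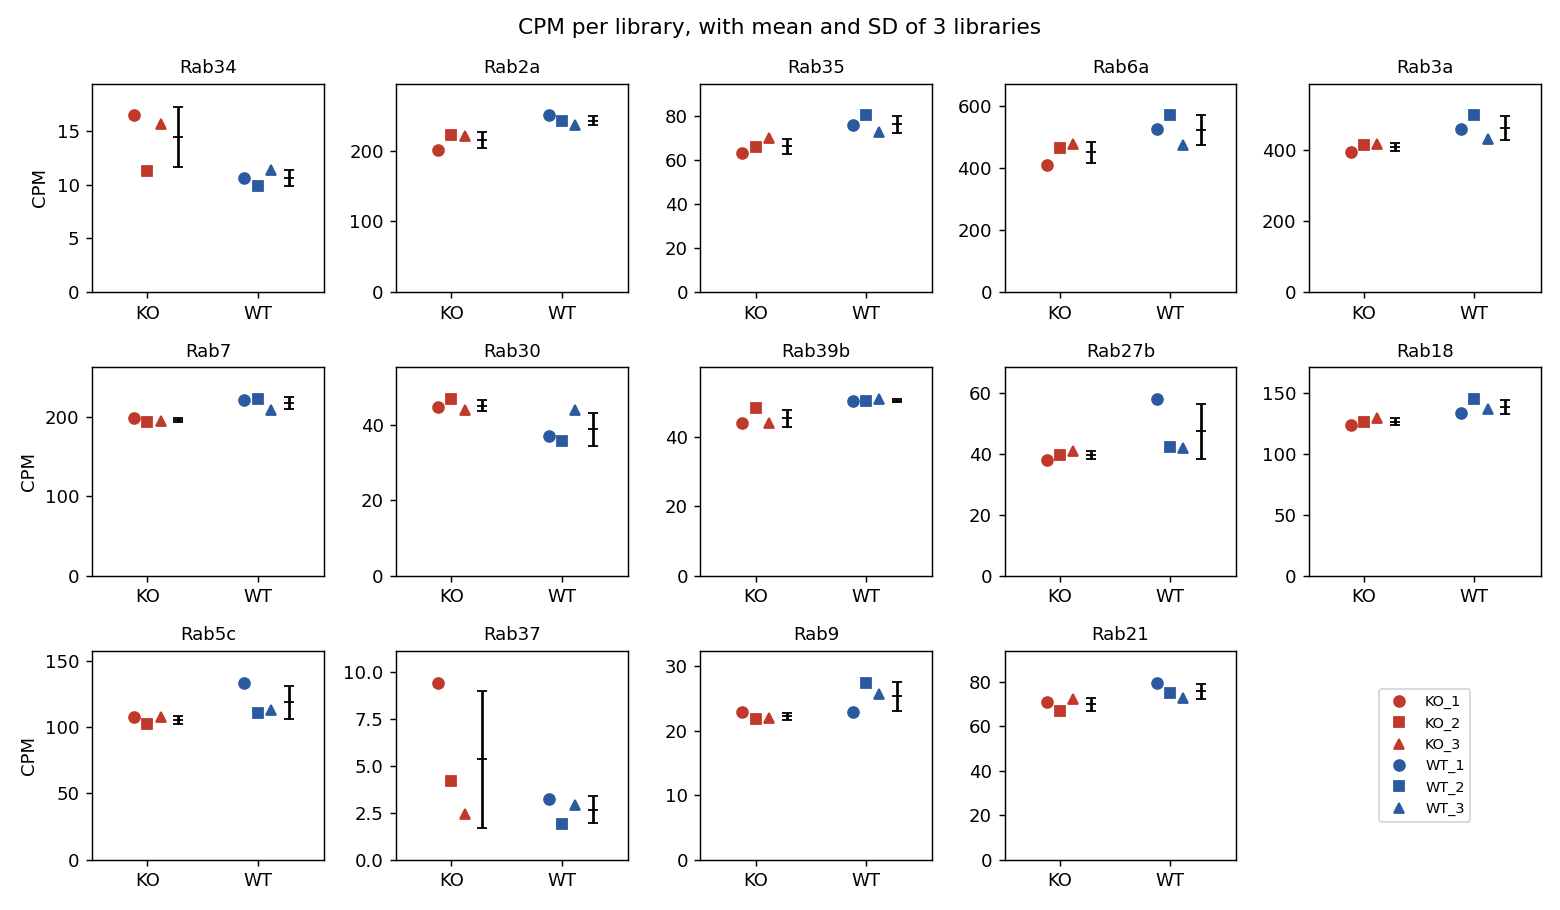
CPM per library (symbols, 1 shape per replicate) in KO (red) and WT (blue) for the Rab genes with an unadjusted p under 0.05 or without overlap, and for Rab37; black bars give the mean and SD of 3 libraries, and each axis starts at 0. The KO mean lies below the WT mean in 11 of the 14 panels, by a small part of the level. Rab34, Rab30 and Rab37 have higher KO means.

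Rab37 (chr11:114982257-115053062, plus strand), a Rab of secretory granules in endocrine and immune cells, had the largest fold change of the tested Rab genes and rested on 1 library. KO replicate 1 had 9.40 CPM, the other KO libraries 4.19 and 2.42 CPM, and the WT libraries 3.21, 1.88 and 2.90 CPM (log2 fold change 0.85, SE 0.45, unadjusted p 0.0826). Without KO replicate 1 the log2 fold change was 0.27, and without KO replicate 3 it was 1.31 (unadjusted p 0.00385). Over all libraries the unadjusted p was 0.0290 with edgeR's quasi-likelihood test, 0.0123 with DESeq2, 0.00363 with the Y-linked covariate and 0.00454 with the replicate block, and no alternative gave an adjusted p under 0.297. In the same library the summed level of 8 olfactory bulb markers, a list chosen after the data were seen, was 340 CPM against 25.5 to 91.2 CPM in the other 5, and 8 of the 8 genes were highest there. Rab3b (55.7 CPM), Rab34, Rab31 (58.7 CPM), Rab32 (2.43 CPM) and Rab29 (3.38 CPM) were also highest in KO replicate 1. The part of such tissue in these values was not tested.

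The summed levels by compartment were set side by side for the genotypes, without a test. The ER and Golgi Rabs summed to 547, 587 and 604 RPKM in KO and 645, 660 and 606 RPKM in WT, which did not overlap, though KO replicate 3 and WT replicate 3 nearly met. The secretory vesicle Rabs summed to 258 ± 3.81 RPKM in KO and 286 ± 19.8 RPKM in WT (SD, n = 3), also without overlap, as did the late endosomal and lysosomal Rabs at 149 ± 4.15 and 161 ± 5.90 RPKM. The sums for the other compartments overlapped. Over all 59 genes the sum was 1322, 1371 and 1401 RPKM in KO and 1511, 1534 and 1410 RPKM in WT, a difference of -8.09% in the means. WT replicate 3 was the WT library nearest to KO.

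The genes behind these sums were distributed over the compartments. Fold changes were below 0 in 13 of 15 tested ER and Golgi Rabs, 6 of 8 secretory, 6 of 9 early endosomal, 5 of 5 recycling, 5 of 6 plasma membrane and ciliary, and 6 of 8 late endosomal and lysosomal Rabs. These counts stand beside the 48.1% of all genes with a fold change below 0. That share rose with level, from 42.8% at a mean log2 CPM under 5 to 68.6% at 7 or more. An unadjusted p under 0.05 was reached by 4, 1, 0, 1, 0 and 1 Rab genes of these compartments, against 7.82% of all genes. This share too rose with level, from 5.96% to 15.6% between the same classes. The compartments were not matched for level. Of genes in no compartment, Rab40b, whose protein recruits a ubiquitin ligase, had 31.9, 31.9 and 26.6 CPM in KO against 24.6, 22.6 and 30.1 in WT, which overlapped.

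**Figure D5:**
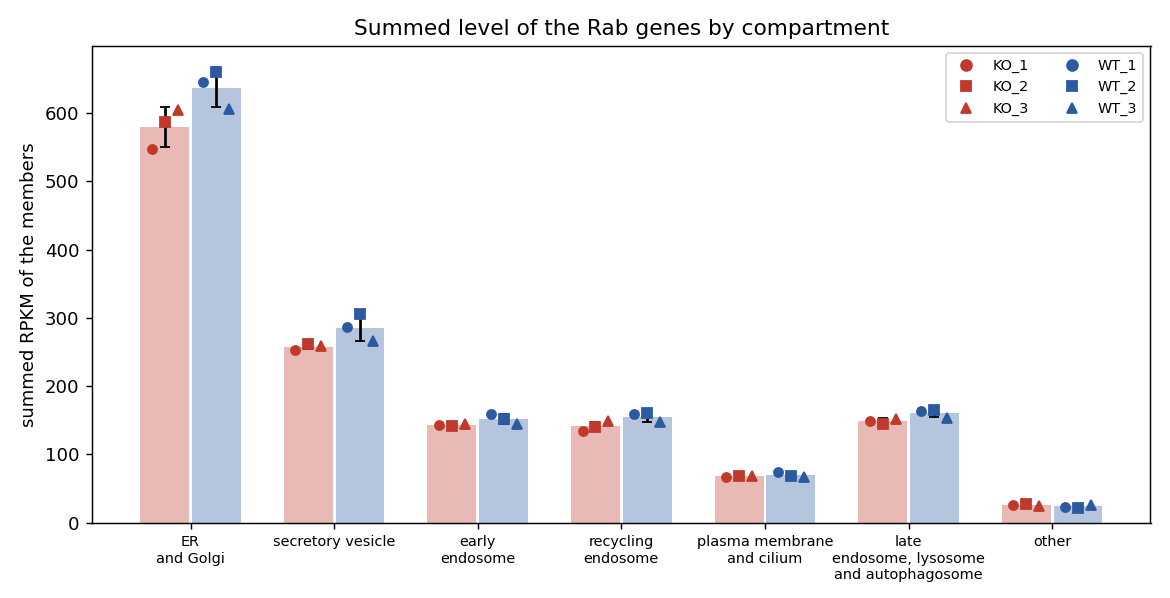
Summed RPKM of the Rab genes of each compartment in the KO (red) and WT (blue) libraries; bars give the mean of 3 libraries with SD, symbols the libraries. ER and Golgi Rabs make up the largest sum, 580 RPKM in KO and 637 RPKM in WT, and WT replicate 3 lies nearest to the KO libraries in the 2 largest groups.

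The summed neuron marker list was likewise lowest in KO replicate 1 and highest in WT replicates 1 and 2, with WT replicate 3 among the KO libraries, although 3 of its 12 genes, Map2, Gad1 and Gad2, were highest in KO replicate 1. The sum was 9300, 9687 and 9728 CPM in KO against 10485, 10836 and 9680 in WT, with 12 of 12 detected everywhere. Of the 12, 9 had fold changes below 0 (median log2 fold change over the list -0.14). Per 1000 CPM of these markers, a ratio chosen after the data were seen, the summed Rab level was 142, 142 and 144 RPKM in KO and 144, 142 and 146 RPKM in WT, so the groups overlapped. The ratio overlapped for each compartment except the secretory vesicle, where it was 27.0 ± 0.33 in KO and 27.6 ± 0.47 in WT (SD, n = 3). There the groups nearly met, with 27.28 in KO replicate 1 and 27.29 in WT replicate 1. Markers of oligodendrocytes summed to 2361 to 2735 CPM in KO against 1868 to 3022 in WT and those of striatal neurons to 400 to 519 and 310 to 491 CPM, highest among WT in replicate 3 for both. Fold changes were above 0 in 9 of the 12 oligodendrocyte markers (median log2 fold change 0.14), 10 of the 10 striatal markers (0.27) and 12 of the 12 astrocyte markers (0.07), and the summed astrocyte level was 5454 to 6140 CPM in KO against 5149 to 6045 in WT. Fold changes were below 0 in 7 of the 10 cortical layer markers (median -0.09), 7 of the 10 endothelial markers (-0.08), 7 of the 12 microglial markers (-0.02) and 4 of the 7 tested choroid plexus markers (-0.10). For scale, of all 19084 genes tested, 9185 (48.1%) had a fold change below 0 and 9898 one above 0. In bulk tissue, fewer cells of a type and less RNA per cell cannot be told apart, and the part of cell composition in the Rab differences was not tested.

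Of 144 listed genes that act on or with Rab proteins, 140 were tested, and none passed the adjusted threshold in limma-voom. An unadjusted p under 0.05 was reached by 9 (6.43%, against the 7.82% of all genes), 2 lower and 7 higher in KO. Of the 140, 75 had a fold change below 0, against 48.1% of all genes. Of the 7 genes of prenylation and membrane recycling, 6 had a fold change below 0, against the same share, and none reached an unadjusted p under 0.05.

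Among 45 tested GEFs, 18 had a fold change below 0, against 48.1% of all genes, and 5 reached an unadjusted p under 0.05, all 5 higher in KO, against 4.38% of all genes in that direction. The list includes Rab3gap1 and Rab3gap2, which form the Rab3 GAP complex and also act as a GEF for Rab18. Dennd2a, a GEF for Rab9, had 30.3, 27.9 and 25.6 CPM in KO against 20.4, 20.1 and 23.1 in WT, without overlap (log2 fold change 0.40, SE 0.10, unadjusted p 0.00188). Hps1, a subunit of the GEF of Rab32 and Rab38, had 34.3, 28.5 and 31.2 CPM in KO against 24.1, 24.1 and 27.1 in WT, also without overlap (0.32, p 0.00656). Ric1, a subunit of the GEF of Rab6, had a log2 fold change of 0.22 (p 0.0179), opposite in sign to that of Rab6a. Dennd6b and Dennd4c were the other 2, at 0.21 (0.13 without WT replicate 1) and 0.34. Madd, the GEF of Rab3, had 278, 303 and 306 CPM in KO against 319, 348 and 279 in WT, which overlapped.

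Of 37 GAPs, 24 had a fold change below 0, against 48.1% of all genes. An unadjusted p under 0.05 was reached by 3 of the GAPs, against 7.82% of all genes. These were Tbc1d16 (log2 fold change 0.25) and Tbc1d4 (0.41), both higher, and Tbck (-0.18), lower. Their unadjusted p was under 0.05 in 15, 14 and 8 of the 16 alternative settings run. Tbc1d4, known for holding back glucose transporter vesicles through Rab10, had 17.4, 12.1 and 13.9 CPM in KO against 11.8, 10.9 and 9.97 in WT, with KO replicate 1 the highest, and a log2 fold change of 0.26 without that library. Of 48 effectors, 25 had a fold change below 0, also against 48.1%. An unadjusted p under 0.05 was reached by 1 of the effectors, also against 7.82%. This was Rph3a, which encodes the Rab3a effector rabphilin and was at 124 RPKM. It had 472, 535 and 593 CPM in KO against 642, 622 and 579 in WT, so KO replicate 3 exceeded WT replicate 3, with a log2 fold change of -0.21 (SE 0.08, unadjusted p 0.0242). Without KO replicate 1 it was -0.12, and the unadjusted p was under 0.05 in 12 of the 16 alternative settings run. The LRRK2 and LRRK1 kinases and the phosphatase Ppm1h, which set Rab phosphorylation, had log2 fold changes of -0.10, 0.23 and -0.15, with overlap in each. For Ppm1h the value was -0.05 without WT replicate 1 and -0.29 without WT replicate 3.

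The small set of Rab genes at an unadjusted p under 0.05 depended on single libraries and in part on the tool and the scaling. Without KO replicate 1 it held 2 genes, Rab7 and Rab30, without WT replicate 2 it held 3, Rab2a, Rab5c and Rab27b, and without WT replicate 3 it held 16. The count over all genes tested moved as well, to 830 (4.44%), 782 (4.13%) and 2239 (11.8%). Rab30 had an unadjusted p of 0.0656 with DESeq2 and Rab7 one of 0.0515 with library totals as scaling, and they were under 0.05 in 12 and 11 of the 16 alternative settings run. The sign of each of the 7 genes was the same in all 16.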

How the data were processed

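Prefrontal cortex RNA of 3 KO and 3 WT samples was analysed, with groups and replicate numbers taken from sample titles. The deposited values are raw counts of fragments per gene, which the authors made with STAR 2.7.9a and, per the file headers, featureCounts 1.6.0 on paired reads with the reverse strand option, on GENCODE M31 (GRCm39). The study's methods name an older build, so coordinates are those of the files. Fragments that fitted several places or genes were not counted. The exon length of each gene, also deposited, was used for RPKM. Symbols came from GENCODE M21 by gene identifier and matched 52073 of 56923 genes.

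Genes with at least 6 fragments in at least 1 library were tested (19084) with TMM scaling in edgeR 4.0.16 and limma-voom (limma 3.58.1, R 4.3.3), two-sided and without covariates, a filter, scaling and fit that follow the study's methods. Benjamini-Hochberg adjustment ran over all genes, and the threshold of 0.05 was chosen here. CPM are TMM-scaled, fold changes are log2(KO/WT), and errors are SD or the SE of the fit. The procedure was tested on simulated counts, with differences larger than that of any Rab gene in the reported fit. It was therefore not tested on differences of the size seen here. The named genes were the Rab genes at an unadjusted p under 0.05 or without overlap, and the regulators at an unadjusted p under 0.05 or with high level. Rab37 and its olfactory bulb markers, like the level classes and the marker ratio, were chosen after their values were seen. The Rab members, compartments and lists of regulators and markers were chosen with earlier results of these data known. Of 47 listed GEFs, 45 were tested, and Dennd2b and Dennd10 matched no symbol. Of 50 listed effectors, 48 were tested, and Sytl3 and Bicdl2 did not reach the filter. Alternatives were edgeR's quasi-likelihood test, DESeq2 1.42.0, other scalings and filters, quality weights, a Y-linked covariate, a block for replicate number, each library left out in turn, and lengths of the longest transcript. 1 gene of the regulator lists is not reported here by name.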

Additional observations from a re-analysis of the deposited data

How the results depend on the processing

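No alternative brought a Rab gene or a Rab regulator past the adjusted threshold, and for the 7 Rab genes named at an unadjusted p the adjusted p ranged from 0.277 to 0.999. The number of Rab genes at an unadjusted p under 0.05 was 7 in the reported fit (7.82% of all genes), 11 with edgeR's quasi-likelihood test (7.90%), 11 with a Y-linked covariate (10.6%), and between 2 and 16 when 1 library was left out (4.13% to 11.8%). For regulators and effectors it was 9, and between 4 and 17 when 1 library was left out. The number of Rab genes with a fold change below 0 lay between 38 of 53 tested (without KO replicate 1) and 45 of 59 (no filter beyond 1 fragment, which left it at 43 of the 54). Of the 54 tested Rab genes, 36 kept their sign in each of the 16 alternatives that tested them and 18 turned in at least 1, with up to 9 turning in 1 alternative (without KO replicate 1). In the reported fit the largest of these 18 differences was 0.10 in size on the log2 scale, though Rab43 reached 0.26 without WT replicate 3. Among those described for their level, Rab10 had a log2 fold change of 0.0013 with library totals as scaling, and with 1 library left out the values ran from -0.056 to 0.032 for Rab10, from -0.13 to 0.0045 for Rab5b, from -0.080 to 0.014 for Rab28 (0.0033 without KO replicate 1) and from -0.073 to 0.011 for Rab40c. Over all genes, DESeq2 called 1, the fit without WT replicate 2 called 1 and the Y-linked covariate 23, none of them a Rab gene. With lengths of the longest transcript the summed levels were 667 RPKM for ER and Golgi, 388 for secretory vesicles, 179 for early endosomes, 211 for recycling endosomes, 79.7 for the plasma membrane and cilium, and 191 for late endosomes and lysosomes. With the replicate number as a block, 10 Rab genes reached an unadjusted p under 0.05, as did 8.87% of all genes, and none the adjusted threshold. Same-numbered libraries correlated at 0.27, 0.06 and -0.02 in their deviations, and not every library did so best with its own number, so the numbers were not taken to pair the samples, although replicate 1 of each genotype was the library with Xist. The 5 Rab genes under the filter had too few fragments for a comparison at this depth.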

Other observations

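Of the 59 Rab genes, 4 lie on the X chromosome, and 1 library of each genotype had Xist. In the libraries with Xist, Rab39b had 43.9 CPM (KO) and 50.2 CPM (WT), and in the other 4 it had 48.2 and 44.0 CPM (KO) and 50.2 and 50.8 CPM (WT). Rab9b, a paralog of the late endosomal Rab9, was lowest in KO replicate 1 (23.8 CPM) and highest in WT replicate 1 (35.5 CPM), with 27.6 to 30.5 CPM in the others. Rab9 and Rab33a had values of the Xist libraries within the range of the other 4. WT replicates 1 and 2 held the highest value of 33 of the 54 tested Rab genes, WT replicate 3 was the lowest WT library in 26, and KO replicate 1 the lowest KO library in 27. The same counts were not made over all genes, so they do not set the Rab genes apart.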
